A study of Mus musculus with 9 samples.

Results

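The 6 genes described here, Gata1 to Gata6, encode the GATA family of transcription factors, and all 6 were found by symbol among the 21900 protein-coding genes of the RefSeq annotation of GRCm38, the build also named mm10. N6-methyladenosine (m6A) peaks were assigned to a gene when they lay within 500 bp of its body. The family was selected on m6A peaks already known from the same 2 lists, so all that follows is a description of those peaks, and no test was made on them. In wild-type mouse embryonic stem cells (mESCs), 11 of 22531 peaks of replicate 1 and 8 of 5040 peaks of replicate 2 lay at these genes. Gata2, Gata4 and Gata6 had peaks in both replicates, Gata1 and Gata3 in replicate 1 only, and Gata5 in neither. The Gata1 peak lay within 2 lncRNA genes as well.

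The peak lists came from the wild-type immunoprecipitations WT_IP replicates 1 and 2, made with a polyclonal anti-m6A antibody on oligo-dT-selected mRNA of mESCs grown with LIF. The cells are a laboratory line of mixed mouse background that expresses the BirA biotin ligase from the Rosa26 locus, which all libraries of the study share, and the labels list "Rosa26:CRE" with it. The other 7 of the 9 libraries, from Mettl3 and Zc3h13 knockout cells and the inputs, were not analysed here. The peak names in the list of replicate 1 carry a sample name that does not say wild type, and the replicates were taken from the sample labels. The paper describes 2 independent immunoprecipitations on wild-type RNA. The labels call the samples replicates without saying that they came from separate cultures. Fold enrichment is the authors' ratio of immunoprecipitated to input signal at the summit of a peak, and −log10 q is their measure of its significance. The median fold enrichment of all peaks was 5.39 in replicate 1 and 6.35 in replicate 2, and the median −log10 q was 28.9 and 7.54. The depth of the libraries is unknown, so values are read within 1 list, by the percent of its peaks that had a lower value. Transcript levels were not part of the lists, so genes with no peak include any that these cells do not express, a difference in methylation and a difference in the number of expressing cells cannot be told apart, and the cell type could not be checked against the levels of its markers.

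GATA factors carry a pair of zinc fingers of the GATA type and bind DNA sites with the letters GATA at their core. Gata1, Gata2 and Gata3 are best known for blood development, and Gata4, Gata5 and Gata6 for endoderm and heart. m6A is placed on mRNA by the Mettl3 and Mettl14 methyltransferase with its partner proteins, most often at sites with the letters GGAC or close variants of them, and much of it lies near stop codons and in the last part of the transcript. In mESCs, Gata4 and Gata6 are known as factors whose forced expression drives cells towards primitive endoderm.

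Where the RefSeq start-site table gave a strand, the peaks could be placed along the transcript. It held 5 start sites, 1 each for Gata1, Gata3 and Gata5 and 2 for Gata2. The first 50 transcribed bases at the start sites of the 3 genes that had both a strand and a peak are shown because the distances below are counted from their first base. They are RefSeq sequence of GRCm38.p6, written 5′ to 3′ on the transcript strand. The Gata1 start lies on the minus strand at chrX:7967861-7967910, those of Gata2 on the plus strand at chr6:88193891-88193940 and chr6:88198664-88198713, and that of Gata3 on the minus strand at chr2:9878551-9878600. Capitals were kept for the letters GGAC, searched on the transcript strand, and 0 of these sequences hold them, against 18.9% of the same stretch over 32851 start sites. With so few sequences, and none of them within a Gata peak, nothing about the peaks can be read from this.
Gata1: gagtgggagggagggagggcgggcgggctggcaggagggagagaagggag
Gata2, first start: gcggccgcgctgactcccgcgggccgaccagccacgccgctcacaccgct
Gata2, second start: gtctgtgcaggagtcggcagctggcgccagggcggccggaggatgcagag
Gata3: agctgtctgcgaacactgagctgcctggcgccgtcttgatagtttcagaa
None of the 11 peaks of replicate 1 or the 8 peaks of replicate 2 at Gata genes overlapped the window from 250 bases before to 50 bases after a start site listed for any gene, against 7.9% of all peaks of replicate 1 and 4.94% of replicate 2. With 6 of the 11 and 7 of the 8 lying at Gata4 and Gata6, whose own start sites the table does not hold, little can be read from these counts. The listed starts of Gata1 and Gata3 lie inside their gene bodies. Their upstream ends, where the Gata1 peak lies, thus have no entry for these genes.

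**Figure D1:**
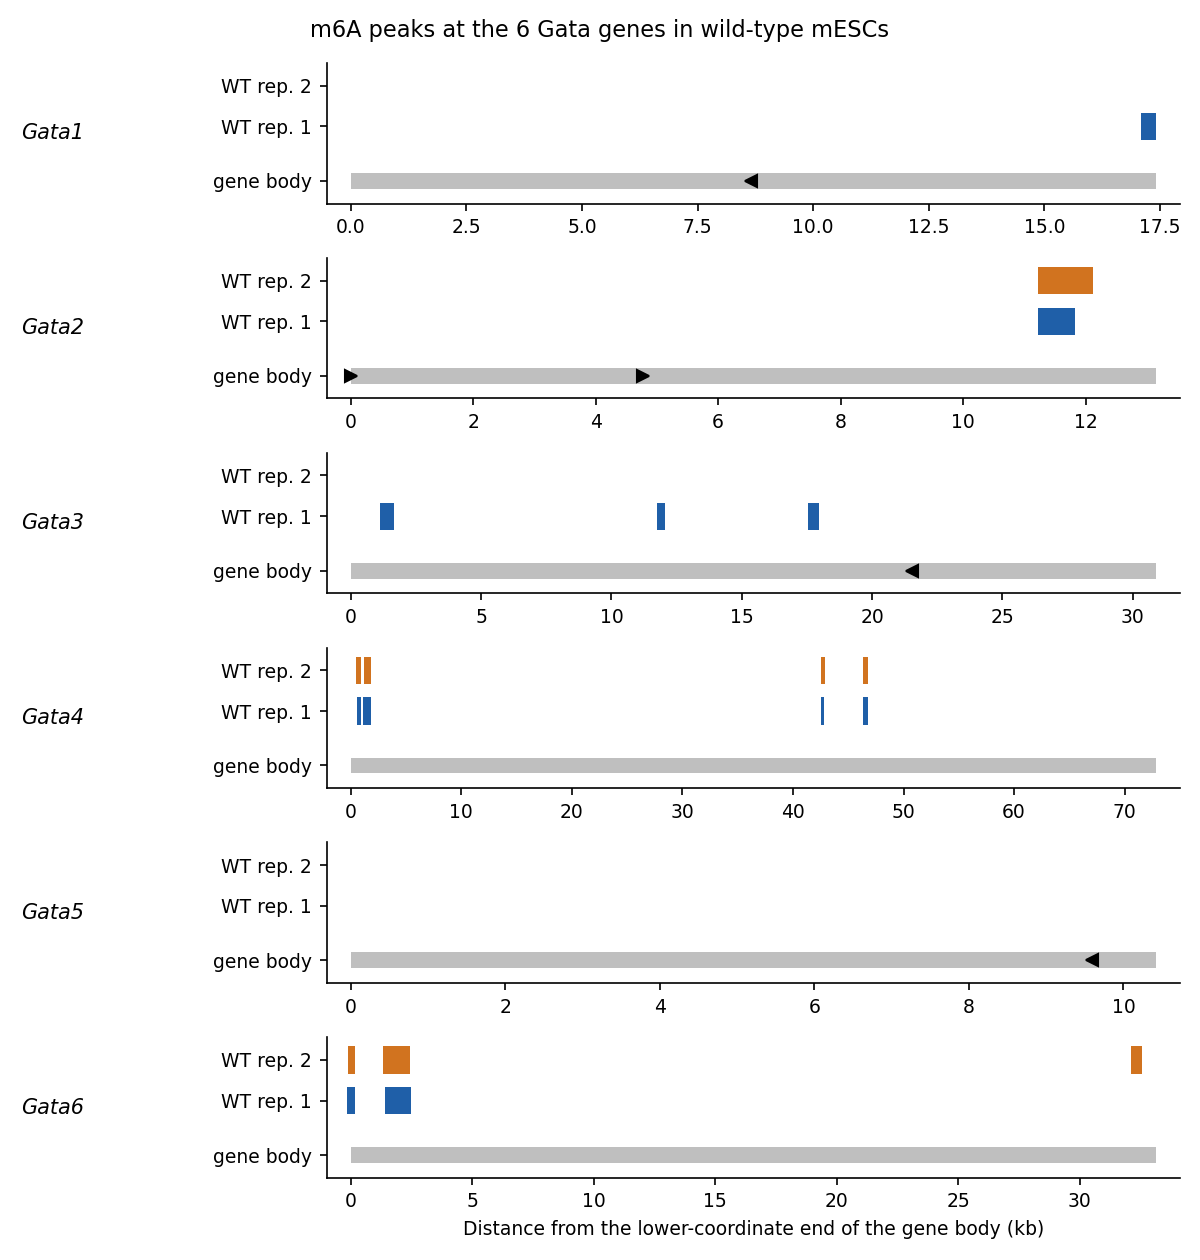
Peaks within 500 bp of the 6 Gata genes, by distance in kb from the lower-coordinate end of the gene body, each panel with its own scale. Grey bars are gene bodies, blue bars peaks of wild-type replicate 1, orange bars peaks of replicate 2, and arrowheads start sites with their direction where the table gives them. Peaks of both replicates stand above each other at Gata2, at 4 sites of Gata4 and at 2 sites of Gata6, and Gata5 has none.

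Of the 6 Gata genes, 5 had a peak in replicate 1, against 41.3% of the protein-coding genes. In replicate 2, 3 of the 6 did, against 16.9%. Gata1 is counted among the 5, though its only peak also lies within the lncRNA genes Gm39488 and Gm52419. A peak in both replicates was found at 3 of the 6 genes, against 16.1%, and at these same 3 the peaks of both replicates overlapped, against 15.6%. Since the family was chosen with these peaks known, the higher shares are not evidence of more methylation in it. Of the 11 Gata peaks listed by replicate 1, 7 had an overlapping partner in replicate 2, against 19.1% over the whole list. Of the 8 listed by replicate 2, 7 had a partner in replicate 1, against 92.1%. In these 7 overlapping pairs the summits lay 4 to 35 bp apart with a median of 6 bp, and over all 4684 overlapping pairs the median was 10 bp and the quartiles 2 and 59 bp. Pairs were formed by overlap, which itself limits how far apart their summits can lie.

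The 4 peaks of replicate 1 with no partner in replicate 2 were those of Gata1 and Gata3. Their −log10 q lay between 15.19 and 24.16, and that of the 7 with a partner between 13.89 and 128.5. The median was 17.7 without and 45.2 with a partner, and over all peaks of the list these medians were 23.6 and 74.6. In fold enrichment the order was turned round at the Gata genes, with a median of 8.01 for the 4 without and 6.88 for the 7 with a partner. Over all peaks of the list these medians lay close together, at 5.32 and 5.72. The ranges overlapped in both measures.

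Gata2, which encodes a factor needed by haematopoietic stem and progenitor cells, had 1 peak in each replicate, and both had high values in their list. The gene spans 13142 bp on the plus strand, at chr6:88193891-88207032. The replicate 1 peak, 609 bp wide at chr6:88205105-88205713, was enriched 10.28-fold, with a −log10 q of 128.5. Of all peaks in that list, 85.6% had a lower fold enrichment and 93.9% a lower −log10 q. The replicate 2 peak, 906 bp wide at chr6:88205108-88206013, was enriched 27.94-fold, with a −log10 q of 53.0, and 99.9% of that list was lower in each. Only 1 of the 5040 peaks of replicate 2 had a higher −log10 q, and 2 others, at Sox17 and Pou4f2, had exactly the same pair of values. Both Gata2 peaks began at nearly the same base and that of replicate 2 ran on further: they shared 606 bp, which was 99.5% of the replicate 1 peak and 66.9% of the replicate 2 peak, and their summits were 4 bp apart. The summit lay 11526 bp downstream of the first start shown above and 6753 bp downstream of the second in replicate 1. It was 1615 bp from the far end of the gene body in replicate 1 and 1611 bp in replicate 2. Over the whole lists, a summit held by a single coding gene with a known strand lay within 2000 bp of the far end of that gene in 26.0% of 14864 cases in replicate 1 and in 44.0% of 3575 cases in replicate 2. The exact binomial 95% intervals, for counting error alone, were 25.3% to 26.7% in the first list and 42.3% to 45.6% in the other. They take each summit as independent, though a gene can hold several, and do not measure the spread between immunoprecipitations. Exons, coding sequence and stop codons were not used here, so the site was not assigned to a part of the transcript. The lncRNA gene Gm38708, whose body overlaps the start of Gata2, had no peak.

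Gata6, a regulator of primitive endoderm and heart, had 2 sites found in both replicates and 1 more found in replicate 2 only. Its body runs over 33127 bp at chr18:11052510-11085636, and the start-site table had no entry for it. The widest peak of the family lay here, 1079 bp at chr18:11053912-11054990 in replicate 1 and 1098 bp at chr18:11053858-11054955 in replicate 2, and the overlap of 1044 bp covered 96.8% and 95.1% of them. This site stood at different places in the lists. Its fold enrichment of 4.645 in replicate 1 was above 40.8% of that list, and its 18.67 in replicate 2 was above 99.1%. By −log10 q it was 45.21 in replicate 1, above 66.2% of the list, and 32.56 in replicate 2, above 99.1%.

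The first Gata6 site crossed the lower end of the gene body. It ran over chr18:11052356-11052675 in replicate 1, 154 bp beyond that end, with a fold enrichment of 6.883, and over chr18:11052380-11052684 in replicate 2, 130 bp beyond it, with a fold enrichment of 6.466. The body of the lncRNA gene Gata6os overlaps that of Gata6 at this end, and the peaks carry no strand, so reads of the 2 genes cannot be told apart here. By −log10 q this was the lowest Gata peak in each list, 13.89 in replicate 1 (above 24.1% of the list) and 6.433 in replicate 2 (above 37.7%). The third site, at chr18:11084639-11085087 in replicate 2, had its summit 770 bp from the higher end of the body. Its fold enrichment was 9.344 and its −log10 q 10.38, above 82.7% and 71.9% of the list. Replicate 1 listed no peak there, and it was the only one of the 8 Gata peaks of replicate 2 with no partner.

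Gata4, known for heart, endoderm and gonad development, had the most peaks of the family, 4 in each replicate, and each peak of one list overlapped a peak of the other. Overlapping peaks in both replicates were found at 3414 of the 21900 protein-coding genes. At 61 (0.279% of the 21900), 4 or more replicate 1 peaks were overlapped in replicate 2. With replicate 1 cut to its 5040 peaks of highest −log10 q, only the second Gata4 site described below stayed shared. The Gata4 body is the longest of the 6, 72799 bp at chr14:63198914-63271712, and the start-site table had no entry for it. The 4 sites formed 2 pairs at a distance from each other. The first pair lay near the lower end of the body. The first site, at chr14:63199507-63199831 in replicate 1 and chr14:63199423-63199879 in replicate 2, had its summit 764 bp and 787 bp from that end. The second site, at chr14:63200063-63200784 in replicate 1 and chr14:63200133-63200792 in replicate 2, had its summit 1610 bp and 1614 bp from it.
The other pair lay inside the body, 42679 bp and 46531 bp from its lower end by the replicate 1 summits. The third site was at chr14:63241405-63241747 in replicate 1 and chr14:63241420-63241769 in replicate 2. The fourth was at chr14:63245241-63245690 in replicate 1 and chr14:63245216-63245692 in replicate 2. No site crossed an end of the body, and no other gene lay within 500 bp of any of them.

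The 4 Gata4 sites were not ordered alike in both lists. In replicate 1 the fold enrichment was 2.319, 6.708, 8.533 and 11.88 from site 1 to site 4, and in replicate 2 it was 5.611, 9.102, 11.08 and 8.729. The first site was the lowest in both, and the highest was site 4 in replicate 1 and site 3 in replicate 2. With 1 value per site and list, no error can be given for these orders. By −log10 q the second site was the highest in both, 86.22 in replicate 1 (above 85.7% of the list) and 16.31 in replicate 2 (above 90.2%). The first site of replicate 1 had the lowest fold enrichment of all 19 Gata peaks, above only 8.49% of its list, and its −log10 q of 19.31 was above 35.0%. Summits of the 4 pairs were 23, 4, 6 and 6 bp apart. The overlap covered at least 90.3% of each replicate 1 peak and at least 71.1% of each replicate 2 peak.

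**Figure D2:**
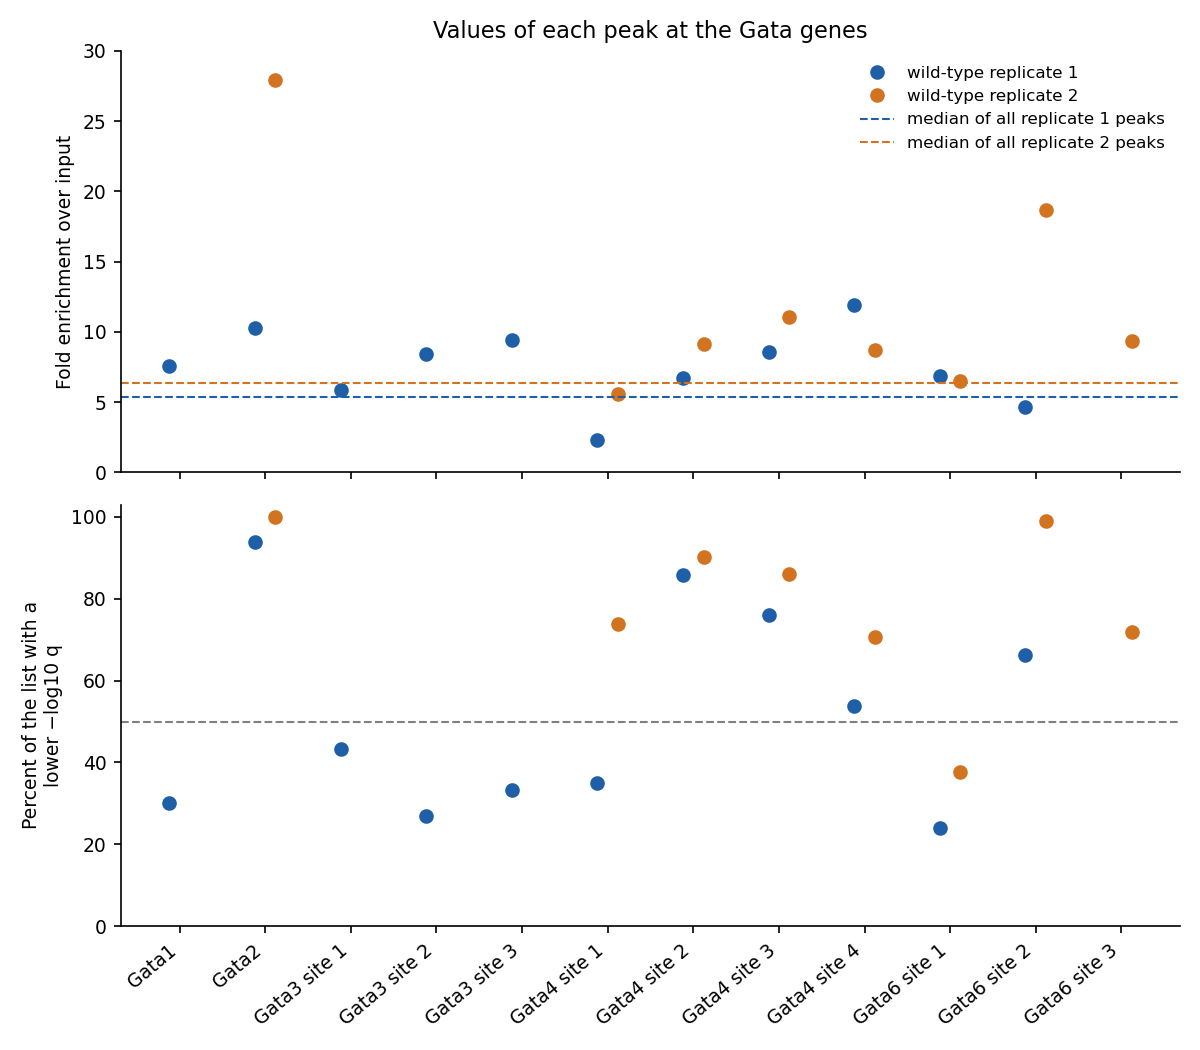
Fold enrichment (upper panel) and percent of the list with a lower −log10 q (lower panel) for each peak at the Gata genes, with sites numbered from the lower coordinate. Blue points are wild-type replicate 1 and orange points replicate 2, dashed lines are the list medians of fold enrichment (5.39 and 6.35) above and 50% below. Gata2 stands at 93.9% and 99.9% in the lower panel, and the 4 sites of Gata1 and Gata3 all lie under 50%.

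Gata3, a master regulator of T helper cell fate that also acts in trophoblast, had 3 peaks, all in replicate 1 and each with no partner in replicate 2. The gene lies on the minus strand at chr2:9857078-9887953, 30876 bp in all. Counted from the start shown above, the summits lay 3706, 9649 and 20143 bp downstream, at chr2:9874614-9875051, chr2:9868811-9869140 and chr2:9858189-9858720. In that order the fold enrichment was 9.39, 8.421 and 5.88 and the −log10 q was 18.52, 15.19 and 24.16. Fold enrichment was thus highest at the site nearest the start, and −log10 q at the site nearest the far end, whose summit lay 1379 bp from it. All 3 were above the list median in fold enrichment and below it in −log10 q, above 33.4%, 26.9% and 43.3% of the list in the same order. The overlapping lncRNA genes 4930412O13Rik and 9230102O04Rik had no peak.

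Gata1, an X-linked factor required for red cells and platelets, had a single peak, in replicate 1, at chrX:7976342-7976668. Its fold enrichment was 7.594 and its −log10 q 16.8, above 72.4% and 30.2% of the list. The body of Gata1 runs over chrX:7959260-7976663 on the minus strand, so this peak lay at its upstream end and reached 5 bp beyond it. The summit was 8565 bp upstream of the start shown above. The lncRNA genes Gm39488 and Gm52419 also cover this position, so the peak may belong to any of the 3 genes. No peak of either list lay between that start and the far end of Gata1.

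Gata5, which acts in heart valve and endoderm development, had no peak in either replicate. Its body of 10416 bp at chr2:180325088-180335503 is the shortest of the 6. The nearest peak was 45229 bp away in replicate 1, at Rbbp8nl, with a fold enrichment of 10.4, and 138502 bp away in replicate 2, at Slco4a1, with 6.5. Gata5os, a lncRNA gene that overlaps the body of Gata5, had no peak. For the other 5 genes the nearest peak outside the 500 bp lay 15206 to 83368 bp away in replicate 1 and 34992 to 1901621 bp away in replicate 2, so the choice of 500 bp decided no peak. The peaks nearest the limit from inside overlapped the gene bodies themselves.

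Over the family, 9 of the 11 peaks of replicate 1 and 7 of the 8 of replicate 2 were above the list median in fold enrichment. By −log10 q, 5 of 11 and 7 of 8 were. Peaks were 320 to 1079 bp wide in replicate 1 with a median of 438 bp, and 305 to 1098 bp wide in replicate 2 with a median of 467 bp, beside medians of 445 bp and 446 bp over all peaks. Taking each gene by its highest −log10 q, Gata2 was 1292nd of the 9038 coding genes with a peak in replicate 1, followed by Gata4 (2671st), Gata6 (5048th), Gata3 (6876th) and Gata1 (7607th). In replicate 2, Gata2 was second of 3704, level with Sox17 and Pou4f2, Gata6 was 40th and Gata4 446th. By −log10 q, Gata2 thus led the family in both replicates, while Gata4 and Gata6 changed places. By highest fold enrichment the order in replicate 1 was another, with Gata4 first (1673rd, 11.88-fold), then Gata2 (2219th), Gata3 (2563rd), Gata1 (3617th) and Gata6 (4133rd). In replicate 2 it was again Gata2, Gata6 (46th) and Gata4 (454th). Several of these ranks rest on values that recurred at other peaks and are not exact places. In replicate 1 the peaks of highest fold enrichment of Gata3, Gata1 and Gata6 shared their values with 52, 16 and 21 others. In replicate 2 the highest −log10 q of Gata6 was held by 7 peaks and that of Gata4 by 13.

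Several Gata peaks had values that recurred at many other peaks. In replicate 1, 46.5% of all peaks had exactly the same pair of fold enrichment and −log10 q as at least 1 other peak, and in replicate 2 61.7% did. The 2 Gata3 peaks nearest the start shared theirs with 52 and 76 other peaks, the first Gata6 site with 21 in replicate 1 and 18 in replicate 2, and the Gata1 peak with 16. The Gata2 peak of replicate 1, the second Gata6 site in both lists, and the second and the fourth Gata4 site in replicate 1 shared theirs with none. Pairs of values this common do not rank the peaks that carry them. Input coverage was not part of the lists, and its part in these values was not tested.

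**Figure D3:**
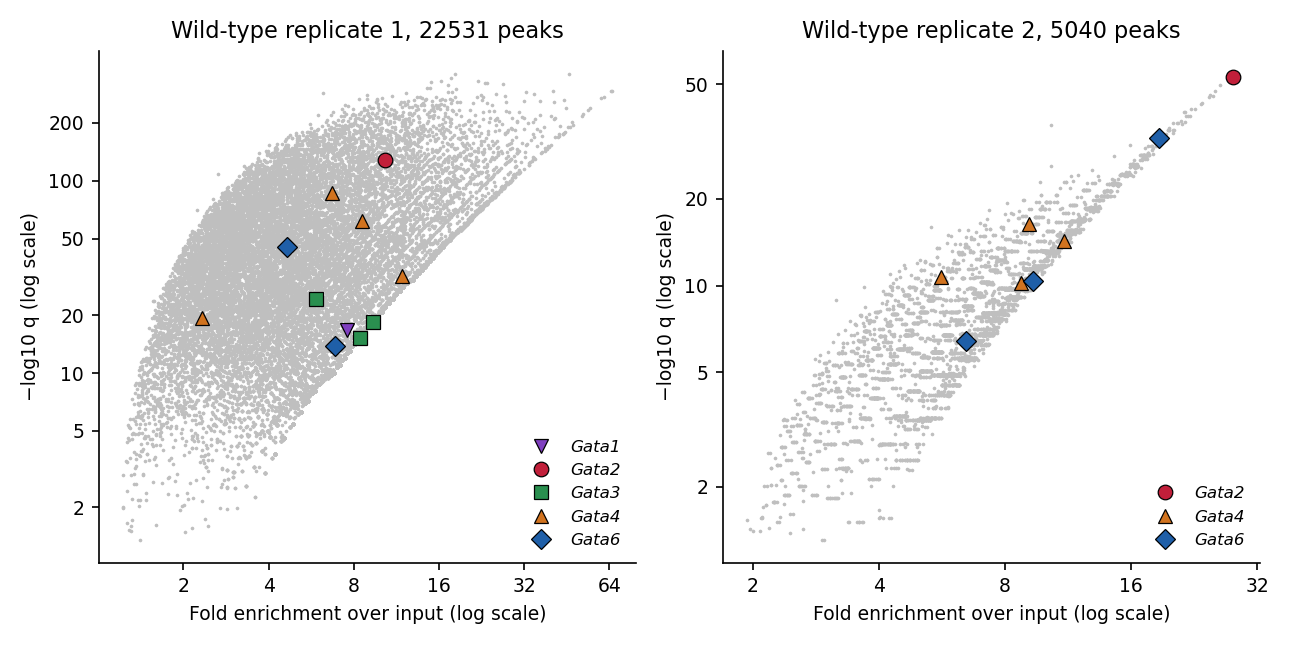
−log10 q against fold enrichment, both on log axes, for all 22531 peaks of wild-type replicate 1 (left) and all 5040 of replicate 2 (right) in grey, with the Gata peaks marked by gene. Gata2, at 10.28 and 128.5, stands highest of the Gata peaks in replicate 1, and at 27.94 and 53.0 it stands at the upper corner of replicate 2. In replicate 1 the peak of Gata1, 2 of Gata3 and the first of Gata6 lie low among grey points of similar fold enrichment. Their −log10 q was above 24.1% to 33.4% of the whole list.

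Genes that work with GATA factors, or that only share the GATA type of zinc finger, were read in the same way. They formed 3 lists of 42 genes, all matched by symbol. Of 16 endoderm and heart factors that act with Gata4 and Gata6, 13 had a peak in replicate 1, against 41.3% of all protein-coding genes. A peak in both replicates was found at 7 genes, against 16.1%, with overlapping peaks at all 7. Among them were the SoxF factors Sox7 and Sox17, the forkhead factor Foxa2, the T-box factor Tbx20, Srf, which binds serum response elements, and the receptor Pdgfra, a marker of primitive endoderm. Sox17 had the same highest values in replicate 2 as Gata2, 27.94-fold with a −log10 q of 53.0. In replicate 1 its highest fold enrichment, 10.11, and its highest −log10 q, 147.7, came from different peaks. The highest fold enrichment of Pdgfra was 8.691 (replicate 1) and 17.26 (replicate 2). Tbx20 had 11.01 and 8.368. Srf had the lowest of the 7 in each list, 3.897 and 7.02. Another 6 genes had a peak in replicate 1 only, and Tbx5, Hand2 and Mef2c had none.

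Of 17 cofactors and haematopoietic partners, 12 had a peak in replicate 1, against 41.3% of all protein-coding genes. A peak in both replicates, again with overlap at all 5, was found at 5 genes, against 16.1%. They were Zfpm1 (also named Fog1), the zinc finger cofactor that binds GATA proteins directly, Tal1 and Runx1, transcription factors of blood stem cells, Klf1, an erythroid factor, and Ssbp3, a partner of Ldb1. By its highest peak Tal1 was enriched 37.07-fold in replicate 1 and 13.29-fold in replicate 2, and Runx1 20.61-fold and 8.613-fold. For Zfpm1 these values were 11.33 and 8.807, for Klf1 10.51 and 8.184, and for Ssbp3 4.888 and 3.427. Zfpm2 (Fog2), the related cofactor of Gata4 in heart, was among the 7 with a peak in replicate 1 only. The adaptor Lmo2 and the GATA1 partner Gfi1b had none.
Of the 9 other genes with a GATA-type zinc finger, 4 had a peak in replicate 1, and this 44.4% is near the 41.3% of all protein-coding genes. In replicate 2, 0 of the 9 had a peak, against 16.9%, in a list too short to read more from it. The genes with a peak were thus all from replicate 1. These 4 were Trps1, a repressor that binds GATA sites, Gatad2a and Mta3, which belong to the NuRD complex, and Rere. Trps1 and Rere had 7 peaks each in replicate 1, more than any Gata gene, with no allowance made for gene length. The shares with a peak in both replicates, 43.8% of the endoderm and heart factors, 29.4% of the cofactors and blood partners and 0 of 9 of the other zinc finger genes, stand beside 16.1% of all protein-coding genes, and since the lists were written with earlier results of these data known they were not tested.

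**Figure D4:**
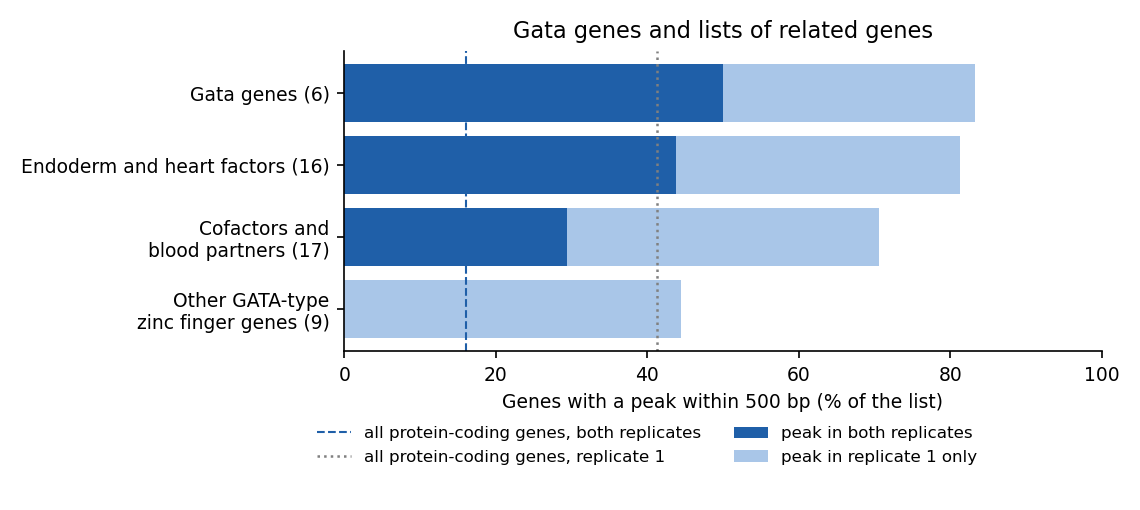
Percent of the genes of each list with a peak within 500 bp, and the size of each list after its name. Dark blue stands for a peak in both wild-type replicates and light blue for replicate 1 alone, and the dashed line marks 16.1% and the dotted line 41.3% of all protein-coding genes. The dark bar is 50.0% for the Gata genes, and the other zinc finger genes have none.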

How the data were processed

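Each immunoprecipitation was sequenced from a directional library. The tools in the submitters' processing notes are Bowtie, SAMtools and MACS2, with no version, on mm10. The authors called peaks of each wild-type immunoprecipitation by itself against input with MACS2 at default settings. The only wild-type input library of the study is WT_Input. If it was the input used, both lists share it and are not fully separate, but the sources used here do not name the input of each list. The treatment of duplicates and strand is not given there either. The deposited lists give the position and summit of each peak, a score that was not used, a ratio to input (the fold enrichment), and the p-value and q-value as −log10.

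Coordinates are printed from 1. Peaks within 500 bp of a RefSeq gene body were assigned to every such gene. Overlap means at least 1 bp. Strands and start sites came from a RefSeq table of start-site windows, with a single strand for each gene. The join was checked on simulated intervals, with 0 differences from an exhaustive comparison. The members and gene lists were chosen with earlier results of these data known. Named were all Gata genes, every listed gene with a peak in both replicates (except 1 that is not reported here), and genes sharing a Gata peak; genes named beyond that rule were chosen after their values were seen. Alternatives were stricter peaks, a shorter list of replicate 1, other distances and overlaps, and each replicate alone. The work was done in Python 3.11.15 with pandas 2.3.3, numpy 2.4.6, matplotlib 3.10.9 and scipy 1.17.1. Peak sequences were not read, since no genome was used here.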

Additional observations from a re-analysis of the deposited data

How the results depend on the processing

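Gata2, Gata4 and Gata6 kept a peak in both replicates, and overlapping ones, at a −log10 q of at least 5, with a fold enrichment no lower than 4, and at distances of 0 and 2000 bp. They also did so with the nearest gene only, with 50% of both peaks overlapping and with summits within 100 bp, each tried for 1 of the 2 counts. With only the 5040 peaks of replicate 1 that ranked highest by −log10 q, 2 genes were left, since no Gata6 peak of replicate 1 was among them, and the peaks at Gata genes numbered 10 in place of 19. Of the 4 Gata4 peaks of replicate 1, only that of the second site was kept, 3218th in the full list, so the other Gata4 sites were no longer shared. With 1 replicate alone, 3 to 5 Gata genes had a peak, with 8 to 11 peaks, and the lists had 7 to 13 endoderm and heart factors, 5 to 12 cofactors and partners and 0 to 4 other zinc finger genes. The other counts of the 3 lists stayed within 1.5 times. Taking for each gene the peak of highest −log10 q in place of the highest fold enrichment changed 4 of 8 values: 5.88 at Gata3, 6.708 and 9.102 at Gata4 in replicates 1 and 2, and 4.645 at Gata6 in replicate 1. No paired analysis was possible because the files come from 1 group and nothing was compared between groups. Positions relative to the stop codon and motif letters within the peaks were not run, for want of a genome with exons, and proteins were not compared. What sequencing depth limits could not be told without read numbers.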
